A study of Mus musculus with 16 samples.

Results

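The mitosis and G2 genes described here are 48 genes whose products take a cell from the end of DNA replication through mitosis to cytokinesis. They were chosen by name and not by a rule on their values, though with earlier results of these data known. Each gene was represented by 1 probe set, the one with the highest mean over the 16 arrays. Of the 48 genes, 47 were measured and all 47 entered the tests, among 11145 genes tested and 18193 genes with a probe set. Ccnb1, the gene of cyclin B1, was not analysed here. RNA came from cultured mouse spermatogonial stem cells of the C57BL\6 background, grown from germ cells enriched for Thy1, and was hybridised to Affymetrix Mouse 430 2.0 arrays. All cultures, controls included, grew in a defined serum-free medium to which GDNF (20 ng/ml), GFRα1 (150 ng/ml) and FGF2 (1 ng/ml) had been added. The 4 groups had 4 arrays each and carried a short interfering RNA for 30 hours: a negative control, or one against Etv5, Bcl6b or Pou3f1, which encode transcription factors of the spermatogonial stem cell. The knockdowns were transient and partial, and the labels do not say whether the arrays of a group came from separate cultures, so that p-values measure the spread between arrays, which may be technical.

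Spermatogonial stem cells keep their number by dividing, and in culture GDNF and FGF2 signalling maintains that division. Entry into mitosis is driven by CDK1 bound to cyclin A2 or a B-type cyclin, anaphase is released when the anaphase-promoting complex (APC/C) destroys securin and cyclin B, and the cleavage furrow then separates the daughter cells. Transcripts of most of these genes peak in G2 and M, and their promoters are known for a cell cycle genes homology region (CHR), bound by the MuvB complex, and for CCAAT boxes, bound by NF-Y. B-Myb and FOXM1 join MuvB when the genes are active. A culture that is not synchronised holds cells of every phase, and in bulk RNA fewer cells in G2 or M and less RNA per cell cannot be told apart.

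The promoter windows of 7 members are shown because the motifs in them are a feature that the choice of genes by name did not use. Windows run from 250 bases before to 50 bases after the annotated transcription start, 5′ to 3′ on the strand of the gene, from RefSeq on GRCm38.p6. Capitals mark CHR elements (TTTGAA or TTCGAA) and CCAAT boxes on either strand, so that TTCAAA and ATTGG are matches read from the other strand. Cdk1, Plk1, Aurka, Top2a and Mki67 carry main roles, and Anln was called in 1 comparison. These genes were picked among those with a CHR element in the window, so its presence in their windows is not a result. Ccnb1, with a main role and no CHR element, is not shown. Nek2, which holds no CHR element, was added after its values were seen.
Cdk1, chr10:69352863-69353162, minus strand: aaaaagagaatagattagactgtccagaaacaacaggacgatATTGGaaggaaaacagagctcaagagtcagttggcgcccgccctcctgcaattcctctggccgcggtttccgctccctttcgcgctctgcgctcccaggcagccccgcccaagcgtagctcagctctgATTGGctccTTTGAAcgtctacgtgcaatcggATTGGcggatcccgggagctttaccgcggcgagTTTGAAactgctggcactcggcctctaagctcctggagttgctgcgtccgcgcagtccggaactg
Plk1, chr7:122159185-122159484, plus strand: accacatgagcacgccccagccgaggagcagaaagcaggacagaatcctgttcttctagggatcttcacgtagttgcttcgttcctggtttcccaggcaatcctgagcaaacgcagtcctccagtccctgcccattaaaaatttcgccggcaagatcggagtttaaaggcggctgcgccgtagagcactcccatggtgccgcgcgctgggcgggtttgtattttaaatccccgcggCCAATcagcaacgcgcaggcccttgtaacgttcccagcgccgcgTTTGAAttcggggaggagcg
Aurka, chr2:172370521-172370820, minus strand: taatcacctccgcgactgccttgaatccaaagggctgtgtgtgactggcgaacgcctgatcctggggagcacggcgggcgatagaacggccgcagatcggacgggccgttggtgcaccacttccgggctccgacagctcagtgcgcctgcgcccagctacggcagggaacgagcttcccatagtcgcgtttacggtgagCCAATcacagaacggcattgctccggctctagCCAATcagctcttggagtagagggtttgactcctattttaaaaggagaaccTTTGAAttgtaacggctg
Top2a, chr11:99024140-99024439, minus strand: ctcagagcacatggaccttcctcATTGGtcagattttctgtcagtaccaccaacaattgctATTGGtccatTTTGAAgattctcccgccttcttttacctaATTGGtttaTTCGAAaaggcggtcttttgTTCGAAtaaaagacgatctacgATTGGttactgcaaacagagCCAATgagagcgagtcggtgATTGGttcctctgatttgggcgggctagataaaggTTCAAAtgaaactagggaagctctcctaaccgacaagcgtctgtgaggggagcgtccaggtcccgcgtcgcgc
Mki67, chr7:135716330-135716629, minus strand: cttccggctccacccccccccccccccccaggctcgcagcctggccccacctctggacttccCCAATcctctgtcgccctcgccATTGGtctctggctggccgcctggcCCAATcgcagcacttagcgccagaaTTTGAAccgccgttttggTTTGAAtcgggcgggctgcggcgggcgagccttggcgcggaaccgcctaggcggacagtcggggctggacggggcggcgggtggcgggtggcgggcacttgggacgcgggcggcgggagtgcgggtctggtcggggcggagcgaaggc
Anln, chr9:22389157-22389456, minus strand: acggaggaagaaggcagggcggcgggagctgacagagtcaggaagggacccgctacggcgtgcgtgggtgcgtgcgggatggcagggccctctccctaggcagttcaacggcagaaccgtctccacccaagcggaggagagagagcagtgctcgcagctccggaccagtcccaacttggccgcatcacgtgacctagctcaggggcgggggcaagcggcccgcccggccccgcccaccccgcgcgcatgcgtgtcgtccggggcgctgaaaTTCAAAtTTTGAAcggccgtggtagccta
Nek2, chr1:191821223-191821522, plus strand: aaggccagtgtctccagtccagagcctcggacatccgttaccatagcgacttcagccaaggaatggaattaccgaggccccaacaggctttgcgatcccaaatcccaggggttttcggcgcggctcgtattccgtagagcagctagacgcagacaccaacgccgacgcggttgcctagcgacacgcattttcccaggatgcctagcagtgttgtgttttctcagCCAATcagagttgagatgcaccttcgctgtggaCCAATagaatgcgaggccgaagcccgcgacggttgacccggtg

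The window of Top2a held 4 CHR elements and 6 CCAAT boxes, the highest counts among those shown. Cdk1 held 2 and 3, Mki67 2 and 3, Plk1 1 and 1, and Aurka 1 and 2. Anln held 2 CHR elements and no CCAAT box, and Nek2 had 2 CCAAT boxes and no CHR element. RefSeq windows were found for 40 of the 48 members, 43 windows in all, since some genes have more than 1 start. Ccna2, Cdc25c, Aurkb, Kif20a, Incenp, Tpx2, Smc4 and Foxm1 had no entry. A CHR element lay in 34 of the 43 windows (79.1%), against 17.6% of 21263 windows of protein-coding genes. A CCAAT box also lay in 34 (79.1%), against 38.2%, and both motifs lay in 31 (72.1%), against 7.11%. Of the 46 CHR matches, 31 (67.4%) lay between 60 bases before and 50 bases after the start, against 25.9% of the matches in windows of protein-coding genes. Windows of 1 gene can overlap, so some elements were counted more than once. By gene, 31 of 40 held a CHR element, and 28 held one between those bases. No CHR match was found for Birc5, Ccnb1, Cenpe, Mad2l1, Nek2, Nuf2, Nusap1, Plk4 and Pttg1.

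**Figure D1:**
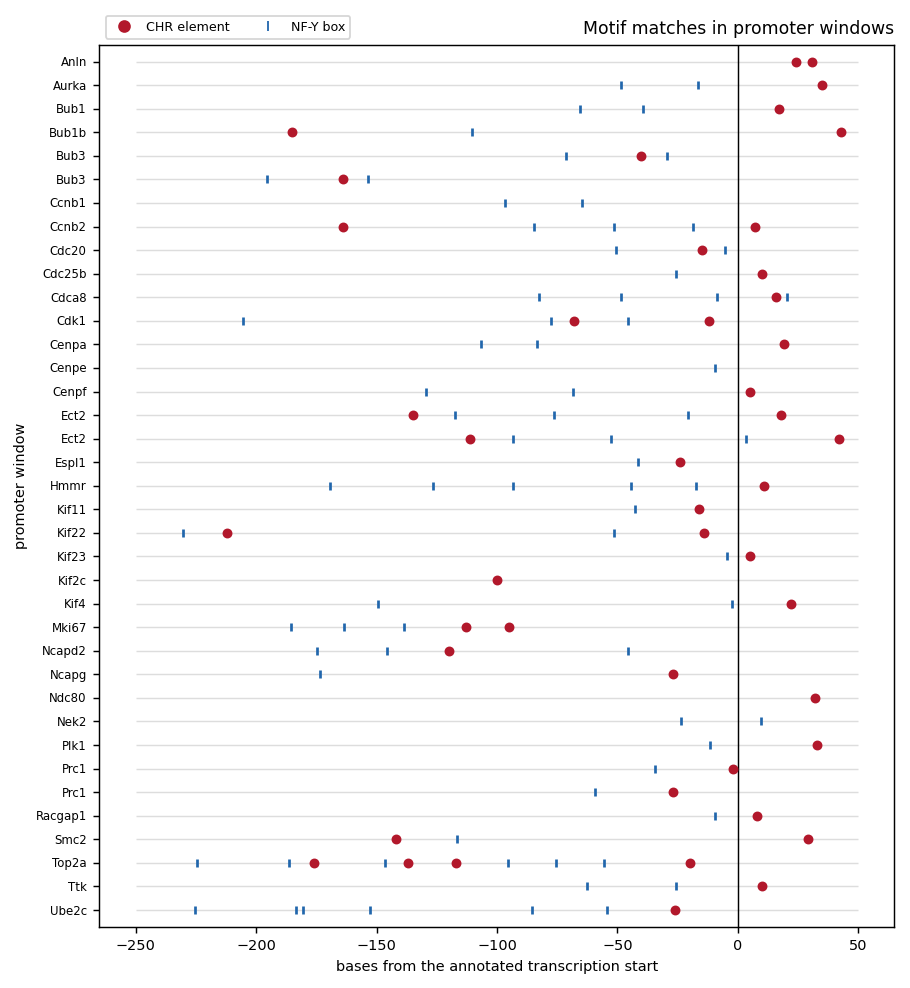
Positions of CHR elements (red circles) and NF-Y boxes, the CCAAT motif (blue ticks), in the 37 of 43 promoter windows that held either; x is the distance in bases from the annotated transcription start and each row is 1 window. Most CHR matches sit close to the start, 31 of 46 of them between 60 bases before and 50 bases after it. An element in overlapping windows is counted in each.

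Letters associated with the families of the silenced factors were searched on both strands in the same windows. The ETS core CCGGAA, for the family of Etv5, lay in 19 of the 43 windows (44.2%), against 18.7% of windows of protein-coding genes. The octamer ATGCAAAT, for POU factors such as Pou3f1, lay in 0 of 43, against 1.66%. The spaced BCL6 motif TTCNNNGAA lay in 0 of 43, against 7.69%. It can overlap a CHR element, since both can end in the letters GAA. A match or its absence describes only these windows.

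The silenced genes were lower on their own arrays. Etv5 intensity was 2969 ± 84.0 (SD, n = 4) in control and 1099 ± 385 with its siRNA, Bcl6b 1453 ± 83.1 and 721 ± 79.4, and Pou3f1 661 ± 21.8 and 415 ± 71.7. Bcl6b was also 686 ± 142 in the Etv5 knockdown. Array medians lay between 15.6 and 17.1. Replicate 1 of the Bcl6b knockdown stood apart: on average it correlated with the remaining arrays at 0.975, where the 15 others reached 0.996 to 0.997. Its log2 signal of the 3′ over the 5′ Gapdh control probe sets was 1.03, against -0.53 to -0.45 elsewhere, and that of Actb was 3.08, against 0.62 to 0.76. On that array 15 of the 47 members (31.9%) lay 0.5 log2 units or more from the control mean, 12 below and 3 above, as did 34.1% of all tested genes. On the other 15 arrays no member did. Counts of called members are therefore given with and without it. Leaving it out keeps the Etv5 and Pou3f1 differences from control as they are and changes their standard errors and p-values. Values below use all 16 arrays unless another set is named.

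Of 18 germ cell and spermatogonial markers 16 were measured, and all 16 lay above the array median in every control sample. Their summed intensity was 51562 to 52483 in control, 47884 to 50800.1 in the Etv5 knockdown, 43524 to 51980 in the Bcl6b knockdown (49886 to 51980 without replicate 1) and 51604 to 55195 in the Pou3f1 knockdown. The 3 silenced genes are among these markers. The median difference over the 16 was -0.135, -0.043 (0.033 without replicate 1) and 0.072 in the Etv5, Bcl6b and Pou3f1 knockdowns. Below 0 were 11, 10 (7 without replicate 1) and 4 of them. With all 16 arrays 0, 1 and 1 were called higher and 3, 1 and 1 lower, where 2.09%, 3.21% and 2.25% of all tested genes were called. All 14 fibroblast and feeder markers were above the median too, and their sum was 172383 to 174538 in control, 177012 to 186583 in the Etv5 knockdown, 177784 to 179757 in the Bcl6b knockdown and 173697 to 178410 in the Pou3f1 knockdown, where the groups overlapped. Vim, the gene of the intermediate filament vimentin, rose by 0.33, 0.29 and 0.35 log2 units in the Etv5, Bcl6b and Pou3f1 knockdowns (adjusted p = 0.00189, 0.00341 and 0.000967) and was the 1 marker of this list called with all 16 arrays. The sums of the Etv5 and Bcl6b knockdowns lay wholly above control, while the median difference over the list was 0.015, -0.035 and -0.042. Below 0 were 5, 10 and 9 of 14 markers. Leaving out replicate 1 of the Bcl6b knockdown, 2, 2 and 1 markers were called higher and 0, 1 and 4 lower. Of the Sertoli markers Wt1, Gata4, Amh, Cldn11, Fshr and Inha were not above the median in every control sample, and 2 of 8 were. The sum of all 8 was 2114 to 2235 in control, wholly above the 1878 to 1967 of the Etv5 knockdown and the 1925 to 2029 of the Bcl6b knockdown, and it overlapped the 1883 to 2189.9 of the Pou3f1 knockdown. Rhox5, a Sertoli marker, fell by 0.15 in the Etv5 knockdown without replicate 1 of the Bcl6b knockdown (adjusted p = 0.0496). Of 8 leukocyte markers all but Adgre1 and Itgam were above it, with sums of 512 to 607 in control, 528 to 579 in the Etv5 knockdown, 481 to 736 in the Bcl6b knockdown (481 to 571 without replicate 1) and 489.8 to 615 in the Pou3f1 knockdown. Of 6 endothelial markers only Plvap was, while Pecam1, Cdh5, Kdr, Tek and Emcn were not, with sums of 267 to 293 in control, 109 to 203 in the Etv5 knockdown, 296 to 384 in the Bcl6b knockdown (296 to 306 without replicate 1) and 223 to 290.2 in the Pou3f1 knockdown. In the fit without replicate 1 of the Bcl6b knockdown, Plvap fell by 1.30 log2 units in the Etv5 knockdown (adjusted p = 6.37e-05) and Lyz2, a leukocyte marker, fell by 1.57 (adjusted p = 0.00893). With all 16 arrays Plvap was called too (adjusted p = 0.0014) and Lyz2 was not. The median over the 6 tested leukocyte markers was 0.095 in the Etv5 knockdown, with 2 of 6 below 0. The part of these marker shifts in the results below was not tested.

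All 47 measured members were above the array median on every array, from 69.8 (Cdc25b) to 7923 (Incenp). Control means ran from 92.6 for Cdc25b to 7396 for Smc4, and 45 of 47 were at least 300. Since probe sets differ in how well they hybridise, these levels do not order the genes by transcript number. Control arrays were close to each other: the median SD over members was 0.043 on the log2 scale, and 43 of 47 had an SD under 0.1. Intensities were taken as log2 of the value plus 1, and a member was called where limma's adjusted p (Benjamini-Hochberg over the 11145 genes) was under 0.05.

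**Figure D2:**
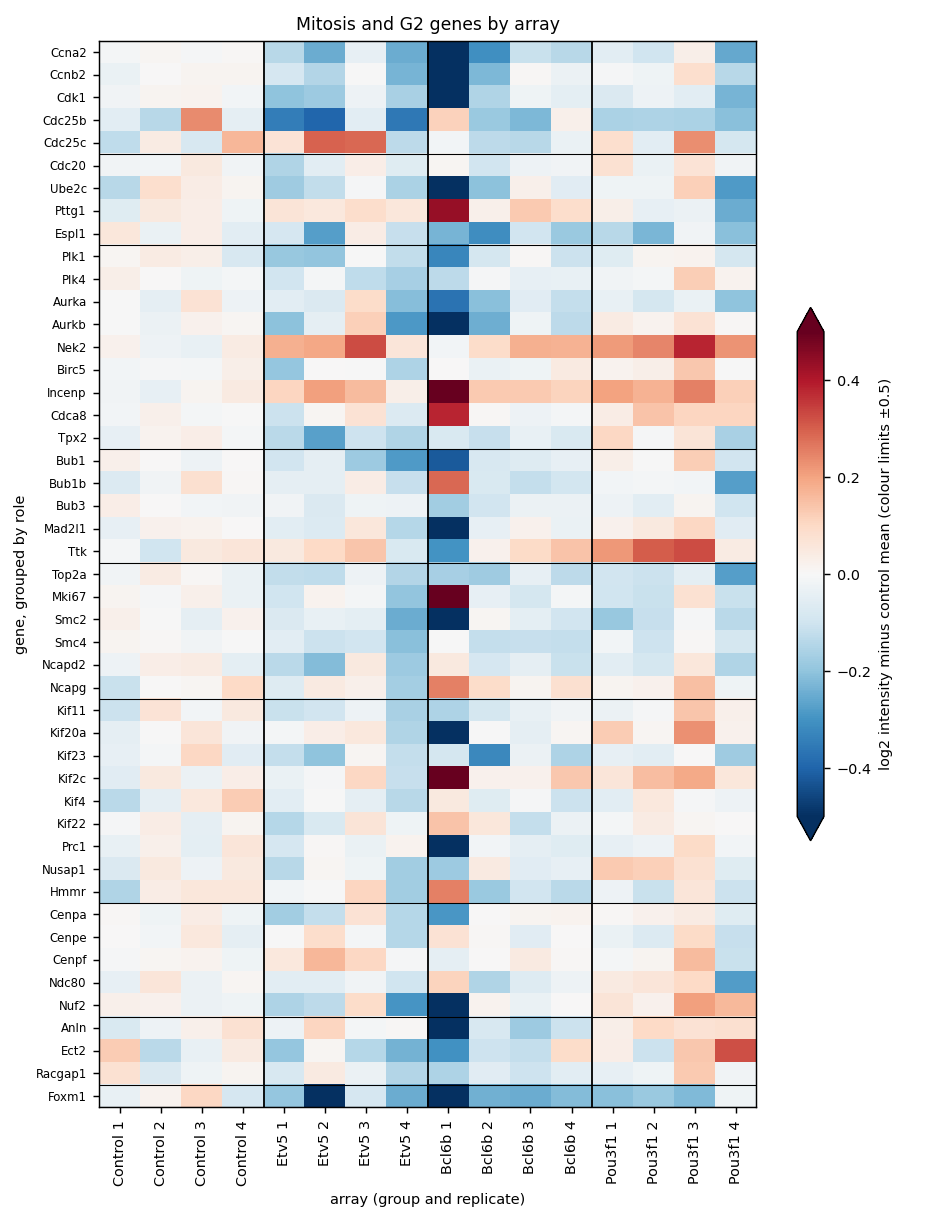
Log2 intensity of each of the 47 measured genes (rows, grouped by role) minus its control mean, on each of the 16 arrays (columns); red is above and blue below the control mean, and colours saturate at 0.5 log2 units. Replicate 1 of the Bcl6b knockdown has the deepest colours, Nek2 is red on all Etv5 and Pou3f1 knockdown arrays, and Cdk1 is blue on all 12 knockdown arrays.

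With Etv5 silenced, the log2 differences of the members from control ran from -0.29 for Cdc25b to 0.19 for Nek2. No member was called by limma with all 16 arrays, where 2.09% of all tested genes were, and 6 members had an unadjusted p under 0.05, 1 higher and 5 lower (12.8% of members, against 11% of all tested genes). Without replicate 1 of the Bcl6b knockdown, whose spread enters the shared estimate, 4 members passed: Nek2 and Incenp rose, and Foxm1 and Smc4 fell. That is 8.51% of the members, where 9.52% of all tested genes were called, so the share of members that passed was near the background (higher in 4.58% and lower in 4.94% of all tested genes). The median difference over the members was -0.073 log2 units, against -0.026 over all tested genes, and 40 of 47 differences were below 0, against 60.5% of all tested genes. Nek2 and Pttg1 were higher on all 4 Etv5 knockdown arrays than on any control array (4.26% of members, against 6.9% of all tested genes), and Bub1, Bub3, Ccna2, Cdk1, Foxm1, Smc4 and Tpx2 were lower (14.9%, against 10.4%). The count depended on how the arrays were weighted: with array weights estimated from the data 15 members were called (31.9%, where 14.9% of all tested genes were called), Incenp and Nek2 higher, and Birc5, Bub1, Ccna2, Cdc25b, Cdk1, Cenpa, Foxm1, Ncapd2, Plk1, Plk4, Smc4, Top2a and Tpx2 lower. Median centring without replicate 1 of the Bcl6b knockdown called no member (where 7.09% of all tested genes were called), so all 4 calls were lost, Nek2 at an adjusted p of 0.0511. Single members below are said to be called or not by the fit with all 16 arrays or without that array, with no weights or further centring.

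With Bcl6b silenced, no member was called with all 16 arrays, where 3.21% of all tested genes were. By unadjusted p 11 members were under 0.05, 2 higher and 9 lower (23.4%, against 19.6% of all tested genes). Without replicate 1 a single member, Smc4, passed and was lower (2.13% of members, where 10.9% of all tested genes were called and 6.87% were called lower). The median member difference was -0.077, against -0.010 over all tested genes, and without replicate 1 it was -0.050 against -0.042. Without that array 39 of 47 differences were below 0, against 65.8% of all tested genes. Incenp was higher than every control array on all 4 arrays (2.13% of members, against 5.25% of all tested genes), and Anln, Aurka, Bub1, Bub3, Ccna2, Cdk1, Espl1, Foxm1 and Top2a were lower (19.1%, against 9.46%). On the 3 arrays without replicate 1, Nek2 joined the higher genes (4.26%, against 8.14%) and Bub1b and Smc4 the lower ones (23.4%, against 19.3%). With array weights 9 members were called (19.1%, where 18.7% of all tested genes were). Median centring without replicate 1 called 12, all lower (25.5%, where 26.6% of all tested genes were called and 24.1% were called lower).

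With Pou3f1 silenced, Nek2 rose and was the 1 member called with all 16 arrays (2.13% of members, where 2.25% of all tested genes were called and 1.03% were called higher). Only 3 members had an unadjusted p under 0.05 (6.38%, against 12.2% of all tested genes). Without replicate 1 of the Bcl6b knockdown Nek2, Incenp and Ttk rose and no member fell, 6.38% of members where 11.4% of all tested genes were called and 4.3% were called higher. The median member difference was 0.0011, against -0.024 over all tested genes, and 23 of 47 were below 0, against 59.1%. Cdca8, Incenp, Kif2c and Nek2 were higher on all 4 arrays than on any control array (8.51%, against 6.4% of all tested genes), and Cdc25b, Cdk1 and Top2a were lower (6.38%, against 11.7%). The 3 knockdowns are set against the same 4 control arrays, so their values are not independent of each other. With array weights 6 members were called (12.8%, where 15.6% of all tested genes were), of which Top2a was lower.

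The knockdowns were also compared with each other. With all 16 arrays no member was called by limma, where 1.49% of all tested genes were called between the Etv5 and Bcl6b knockdowns, 1.44% between Etv5 and Pou3f1 and 2.18% between Bcl6b and Pou3f1. By unadjusted p 3, 7 and 10 members were under 0.05 (6.38%, 14.9% and 21.3% of members, against 14.3%, 9.04% and 15.6% of all tested genes). Without replicate 1 of the Bcl6b knockdown the counts were 0 members, where 4.5% of all tested genes were called, 1 member (Nuf2, lower with Etv5 than with Pou3f1 silenced), where 6.36% were, and 1 member (Anln, lower with Bcl6b than with Pou3f1 silenced), where 5.11% were. With array weights the counts were 1, 10 and 2, where 9.26%, 8.56% and 8.15% of all tested genes were called; the 10 genes lower with Etv5 than with Pou3f1 silenced were Birc5, Bub1, Cdca8, Cenpa, Kif2c, Nuf2, Nusap1, Plk4, Tpx2 and Ttk (21.3% of members).

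**Figure D3:**
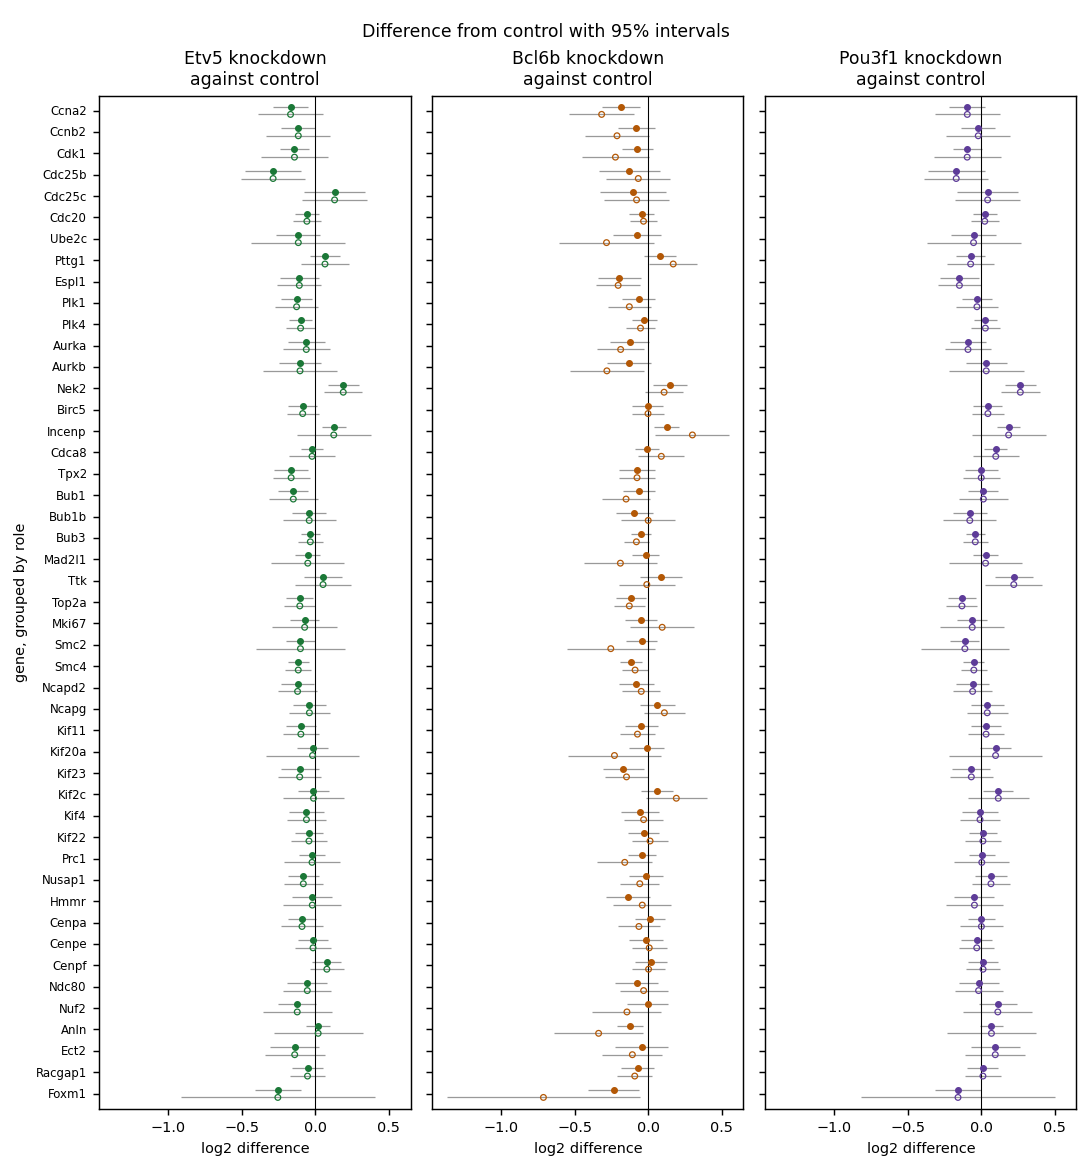
Log2 difference from control (x) of each measured gene (rows, grouped by role) in the Etv5, Bcl6b and Pou3f1 knockdowns, with 95% intervals from limma; open circles use all 16 arrays and filled circles leave out replicate 1 of the Bcl6b knockdown. The filled points lie between -0.29 and 0.27, and leaving out that array moves the Bcl6b points and shortens the intervals in all 3 panels.

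The size of the differences was bounded. The median standard error over the members was 0.076 log2 units with all 16 arrays, and 95% intervals lay within 0.5 log2 units of 0 for 45 members in the Etv5 knockdown, 39 in the Bcl6b knockdown and 46 in the Pou3f1 knockdown. Without replicate 1 of the Bcl6b knockdown all 47 intervals lay within that bound in all 6 comparisons.

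The cyclins, CDK1 and the CDC25 phosphatases start mitosis. Among their genes Cdk1 was lower on all 12 knockdown arrays than on any control array, and it passed the test in no knockdown. Below every control array were 10.4%, 9.46% and 11.7% of all tested genes in the Etv5, Bcl6b and Pou3f1 knockdowns. The share below on all 12 arrays was not computed, and the knockdowns share their control arrays. Cdk1, the catalytic subunit, had intensities of 2581, 2634, 2643 and 2587 in control and 2272, 2303, 2564 and 2335 in the Etv5 knockdown. They were 1638, 2355, 2569.5 and 2522 in the Bcl6b knockdown and 2483, 2566, 2516 and 2225 in the Pou3f1 knockdown. The lowest was replicate 1 of the Bcl6b knockdown. The log2 differences were -0.14 (SE 0.11, adjusted p = 0.75), -0.22 (SE 0.11, adjusted p = 0.264) and -0.10 (SE 0.11, adjusted p = 0.838), and without that array the adjusted p-values were 0.0643, 0.379 and 0.202.

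Ccna2, the gene of cyclin A2, was measured at 2466, 2496, 2473 and 2489 in control, 2251, 2089.8, 2411 and 2090.3 in the Etv5 knockdown and 1515, 2004, 2294 and 2254 in the Bcl6b knockdown. Both knockdowns lay below every control array. In the Pou3f1 knockdown it was 2391, 2317, 2529 and 2079, and replicate 3 lay above control. The Bcl6b difference of -0.32 (SE 0.10, adjusted p = 0.112) shrank to -0.19 without replicate 1 (adjusted p = 0.0637), and the Etv5 difference was -0.17 (adjusted p = 0.633, and 0.0746 without that array). Cdc25b, which encodes a phosphatase that activates CDK1, was dim: 88.8, 83.6, 109 and 89.2 in control and 72.3, 69.8, 88.7 and 71.8 in the Etv5 knockdown. Replicate 3 of the knockdown reached the control range and the other 3 lay below it, with a log2 difference of -0.29 (SE 0.10, adjusted p = 0.237, and 0.0562 without replicate 1 of the Bcl6b knockdown). It was 99.8, 80.8, 78.6 and 93.8 in the Bcl6b knockdown and 82.4, 82.6, 82.5 and 79.6 in the Pou3f1 knockdown, where all 4 arrays lay below control. Ccnb2, the gene of cyclin B2, had a control intensity of 2664 ± 40.4 (SD, n = 4) and Cdc25c, a phosphatase like Cdc25b, 94.7 ± 8.85. Over the 5 measured genes of this role 4, 5 and 4 differences were below 0 in the Etv5, Bcl6b and Pou3f1 knockdowns, with medians of -0.14, -0.21 (-0.10 without replicate 1) and -0.095.

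Cdc20 and Ube2c work with the APC/C, Pttg1 encodes securin and Espl1 encodes separase, the protease that securin holds back. None of these genes of anaphase onset was called with all 16 arrays or without replicate 1 of the Bcl6b knockdown. Espl1 was 1038, 975, 1022 and 964 in control and 850.3, 806, 936 and 879 in the Bcl6b knockdown, all 4 below control. It was 943, 825, 1025 and 923 in the Etv5 knockdown and 908, 853, 987 and 863 in the Pou3f1 knockdown, both overlapping control. The Bcl6b difference was -0.21 (SE 0.070, adjusted p = 0.127), and -0.20 without replicate 1 (adjusted p = 0.0772). Espl1 was called lower in the Bcl6b knockdown under 3 of 29 alternatives, which were array weights and, without replicate 1, median centring and the replicate block. In the Pou3f1 knockdown it was called under 1, the replicate block without that array. Pttg1 was 3715, 4011, 3971 and 3819.7 in control and 4054, 4023, 4119 and 4036 in the Etv5 knockdown, all 4 above control, with a difference of 0.066 (SE 0.076, adjusted p = 0.89, and 0.42 without replicate 1 of the Bcl6b knockdown). It is thus the 1 gene of this role that was higher than control on every Etv5 knockdown array. Control intensities were 5078 ± 117 for Cdc20, the APC/C activator, and 2331 ± 153 for Ube2c, the ubiquitin-conjugating enzyme of the APC/C (SD, n = 4). Over the 4 genes the differences ranged from -0.12 to 0.066 in the Etv5 knockdown, -0.28 to 0.17 in the Bcl6b knockdown (-0.20 to 0.081 without replicate 1) and -0.15 to 0.024 in the Pou3f1 knockdown.

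Nek2 had the highest log2 difference of any member in the Etv5 and Pou3f1 knockdowns. It encodes a centrosomal kinase that separates the centrosomes before mitosis. Intensities were 1428, 1383, 1369.7 and 1445 in control and 1629, 1666, 1832 and 1645 in the Pou3f1 knockdown, with no overlap. The difference was 0.27 log2 units, or 1.20-fold (SE 0.061, limma adjusted p = 0.0325, and 0.00212 without replicate 1 of the Bcl6b knockdown). In the Etv5 knockdown Nek2 was 1591, 1608, 1763 and 1468, again above every control array. That difference was 0.19 (SE 0.061, adjusted p = 0.174) and passed without replicate 1 of the Bcl6b knockdown (adjusted p = 0.0227). In the Bcl6b knockdown it was 1392, 1498, 1592 and 1587, where replicate 1 fell in the control range and the other 3 above it. That difference was 0.11 (adjusted p = 0.338), and 0.15 without replicate 1 (adjusted p = 0.0899). The other Nek2 probe set above the array median gave 0.27 log2 units in the Pou3f1 knockdown and 0.10 in the Etv5 knockdown. With the mean over all Nek2 probe sets, dim ones included, the call was lost: the differences were 0.14 in the Pou3f1 knockdown (adjusted p = 0.411) and 0.087 in the Etv5 knockdown (adjusted p = 0.762). The call in the Pou3f1 knockdown did not hold when any 1 of 8 arrays was left out (each control array, replicate 1 of the Etv5 knockdown, or replicate 2, 3 or 4 of the Pou3f1 knockdown), with differences from 0.23 to 0.28 and adjusted p-values up to 0.123.

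Incenp, the scaffold of the chromosomal passenger complex, was 4410.0, 4335, 4500.5 and 4600.4 in control and 5133, 5032, 5308 and 4841 in the Pou3f1 knockdown, all 4 above control. The difference was 0.19 (SE 0.12, adjusted p = 0.603), and it passed without replicate 1 of the Bcl6b knockdown (SE 0.038, adjusted p = 0.00362). It was 4811, 5147, 4976 and 4549 in the Etv5 knockdown, where replicate 4 lay within the control range, with a difference of 0.13 that passed only without that array (adjusted p = 0.0451). In the Bcl6b knockdown it was 7923, 4887, 4887 and 4812: replicate 1 was far above the others and the other 3 were close together above control. The Bcl6b difference moved from 0.30 (adjusted p = 0.181) to 0.12 (adjusted p = 0.0602). Of the other Incenp probe sets, 2 gave 0.11 and 0.18 in the Pou3f1 knockdown and a dim one gave -0.065.

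Plk1 encodes the polo kinase that drives mitotic entry, Aurka the Aurora A kinase of the spindle poles and Tpx2 its activator. None was called. Plk1 was 974, 998, 990.1 and 915 in control, 851, 844, 968 and 890.0 in the Etv5 knockdown, 773, 912, 972 and 899 in the Bcl6b knockdown and 929.7, 978, 981 and 910.4 in the Pou3f1 knockdown, and every knockdown overlapped control. Aurka was 801, 777, 843 and 789 in control and 621, 693, 771 and 739 in the Bcl6b knockdown, all below control, with a difference of -0.19 (adjusted p = 0.184), and -0.13 without replicate 1 (adjusted p = 0.212). In the Etv5 and Pou3f1 knockdowns it overlapped control at 773, 763, 854 and 692 and at 782, 754, 783 and 697. Tpx2 was 810.2, 845, 853 and 827 in control and 759.6, 690.4, 776 and 751 in the Etv5 knockdown, all below control (difference -0.16, SE 0.059, adjusted p = 0.242, and 0.0615 without replicate 1 of the Bcl6b knockdown). It overlapped control in the Bcl6b knockdown at 791, 769, 813 and 790.3 and in the Pou3f1 knockdown at 896, 830.1, 871 and 745. Of the rest, Plk4 starts centriole duplication, and Aurkb is the kinase of the passenger complex, in which Birc5 (survivin) and Cdca8 (borealin) bind Incenp. Cdca8 was 2934, 3016, 2939 and 2953 in control and 3041, 3264, 3194 and 3188 in the Pou3f1 knockdown, all 4 above control, with a difference of 0.10 (adjusted p = 0.696, and 0.0935 without replicate 1 of the Bcl6b knockdown). Control intensities were 3117 ± 48.8 for Plk4, 1428 ± 20.2 for Aurkb and 1477 ± 20.1 for Birc5 (SD, n = 4). Over the 9 kinases and passenger complex genes 7 differences were below 0 in the Etv5 knockdown, 6 in the Bcl6b knockdown (7 without replicate 1) and 3 in the Pou3f1 knockdown.

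**Figure D4:**
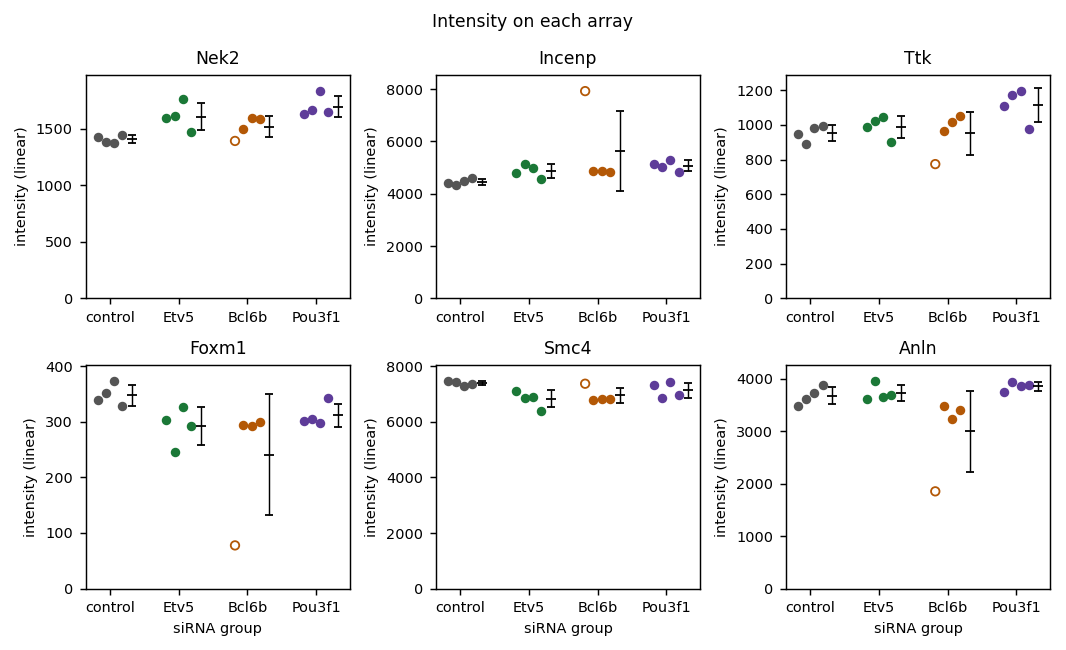
Linear intensity of Nek2, Incenp, Ttk, Foxm1, Smc4 and Anln on each of the 16 arrays (points) by siRNA group, with the group mean and SD beside the points (n = 4); the open circle is replicate 1 of the Bcl6b knockdown. Nek2 lies above control on all Etv5 and Pou3f1 knockdown arrays, and the open circle is far from the other 3 Bcl6b points for Incenp, Foxm1 and Anln.

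Ttk, the gene of the checkpoint kinase MPS1, was 947, 888, 984 and 995 in control and 1108, 1175, 1195 and 979 in the Pou3f1 knockdown, where 3 arrays lay above control and replicate 4 within it. The difference was 0.22 (SE 0.091, adjusted p = 0.317), and it passed without replicate 1 of the Bcl6b knockdown (SE 0.062, adjusted p = 0.0264). Ttk overlapped control in the Etv5 knockdown at 986, 1020.3, 1048 and 903 and in the Bcl6b knockdown at 774, 967, 1018 and 1051. The other spindle checkpoint genes, Bub1, Bub1b, Bub3 and Mad2l1, whose products delay anaphase until chromosomes are attached, were not called. Bub1 and Bub3 were below every control array in the Etv5 and Bcl6b knockdowns. Bub1 was 2771, 2730.5, 2676 and 2726 in control, 2554, 2645, 2404 and 2242 in the Etv5 knockdown and 2036, 2579, 2609 and 2648 in the Bcl6b knockdown, and the Etv5 difference was -0.15 (adjusted p = 0.519, and 0.0584 without replicate 1 of the Bcl6b knockdown). Bub3 was 7129.7, 6978, 6907 and 6891 in control, 6889, 6639, 6864 and 6858 in the Etv5 knockdown and 6186, 6536, 6845 and 6834 in the Bcl6b knockdown. The Bub3 differences were -0.034 in the Etv5 knockdown and -0.081 in the Bcl6b knockdown (-0.050 without replicate 1). Control intensities were 1053 ± 45.1 for Bub1b and 3412 ± 66.1 for Mad2l1 (SD, n = 4). Over the 5 checkpoint genes the median difference was -0.042 in the Etv5 knockdown, -0.081 in the Bcl6b knockdown (-0.050 without replicate 1) and 0.015 in the Pou3f1 knockdown.

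Among the genes of chromosome structure, Smc4, a condensin subunit, was 7463, 7432, 7311 and 7377 in control and 7130.5, 6862, 6915 and 6401 in the Etv5 knockdown, all 4 below control. In the Bcl6b knockdown it was 7376, 6803, 6823 and 6808, with replicate 1 in the control range and the other 3 below it, and in the Pou3f1 knockdown 7317, 6879, 7429 and 6957. Without replicate 1 of the Bcl6b knockdown Smc4 fell by 0.12 log2 units in the Etv5 knockdown (SE 0.034, adjusted p = 0.0377) and by 0.12 in the Bcl6b knockdown (SE 0.037, adjusted p = 0.0457). With all 16 arrays the adjusted p-values were 0.248 and 0.254. In the fit of all probe sets, the 2 other Smc4 probe sets gave -0.13 and -0.12 in the Etv5 knockdown, and -0.11 and 0.12 in the Bcl6b knockdown without replicate 1, where they disagreed.

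Top2a encodes topoisomerase II alpha, which untangles the chromosomes. It was 6236, 6499, 6344 and 6171 in control, 5628, 5582, 6127 and 5759.5 in the Bcl6b knockdown and 5909.9, 5862, 6094 and 5221 in the Pou3f1 knockdown, both below every control array. In the Etv5 knockdown it was 5795, 5780.4, 6195 and 5700.3, where replicate 3 was in the control range. Top2a was not called: the differences were -0.11, -0.13 and -0.13 in the Etv5, Bcl6b and Pou3f1 knockdowns (adjusted p = 0.45, 0.168 and 0.251, and 0.143, 0.124 and 0.0632 without replicate 1 of the Bcl6b knockdown). Mki67, the gene of the Ki-67 antigen used to mark dividing cells, was 3438, 3392, 3461 and 3327 in control, 3174, 3442, 3383 and 2968 in the Etv5 knockdown and 3175, 3152, 3592 and 3151 in the Pou3f1 knockdown. In the Bcl6b knockdown it was 4878, 3306, 3205 and 3377, and its difference changed sign, from 0.095 with all arrays to -0.047 without replicate 1. Mki67 overlapped control in every knockdown and was not called. Smc2, the partner of Smc4, had a control intensity of 3562 ± 78.6, and the condensin I subunits Ncapd2 and Ncapg 1899.5 ± 56.5 and 1549.5 ± 92.3 (SD, n = 4). Over the 6 genes, all 6 differences were below 0 in the Etv5 knockdown, 4 in the Bcl6b knockdown (5 without replicate 1) and 5 in the Pou3f1 knockdown.

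The 9 mitotic kinesins and spindle genes (Kif11, Kif20a, Kif23, Kif2c, Kif4, Kif22, Prc1, Nusap1 and Hmmr) move and bundle spindle microtubules, and none was called with all 16 arrays or without replicate 1 of the Bcl6b knockdown. With median centring and without that array, Hmmr and Kif23 were called lower in the Bcl6b knockdown than in control, and Kif20a lower than in the Pou3f1 knockdown. In the Etv5 knockdown all 9 differences were below 0, from -0.11 to -0.013. In the Bcl6b knockdown 7 of 9 were, from -0.23 to 0.19, or 8 of 9, from -0.17 to 0.059, without replicate 1, and in the Pou3f1 knockdown 3 of 9, from -0.067 to 0.12. Control intensities were 884 ± 47.8 for Kif11, the motor that drives spindle poles apart, 1482 ± 47.1 for Kif20a and 1007 ± 50.7 for Kif23, motors of cytokinesis, and 435 ± 34.2 and 1163 ± 28.5 for the chromosome-bound motors Kif4 and Kif22 (SD, n = 4). They were 1055 ± 37.8 for Prc1, 1474 ± 60.7 for Nusap1 and 449 ± 30.1 for Hmmr, which bind or bundle microtubules. Kif23 had the lowest Bcl6b difference of this role without replicate 1, -0.17 (adjusted p = 0.112), and -0.15 with it (adjusted p = 0.247). Kif2c, a microtubule depolymerase, was above every control array in the Pou3f1 knockdown, at 1351, 1443, 1479 and 1349 against 1247, 1341, 1271 and 1327.

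Nuf2 and Ndc80 form the kinetochore complex that holds microtubules. Nuf2 was 1545, 1541, 1489 and 1497 in control and 1362, 1384, 1615 and 1238 in the Etv5 knockdown, where 3 arrays lay below control and replicate 3 above it. It was 1585, 1539.5, 1751 and 1699 in the Pou3f1 knockdown and 1024, 1538, 1482 and 1519 in the Bcl6b knockdown. The differences from control did not pass the test in the Etv5 knockdown (-0.12, adjusted p = 0.819, and 0.219 without replicate 1 of the Bcl6b knockdown) or the Pou3f1 knockdown (0.11, adjusted p = 0.796, and 0.244). Between these knockdowns Nuf2 was lower with Etv5 silenced, with a log2 difference of -0.24 (SE 0.061, adjusted p = 0.0265 without that array and 0.546 with it), and the groups overlapped through replicate 3 of the Etv5 knockdown. Cenpa, the histone variant of centromeres, Cenpe, a kinetochore motor, Cenpf and Ndc80 were not called. Their control intensities were 3244 ± 62.2, 1606 ± 45.5, 2328 ± 29.8 and 878 ± 27.6 (SD, n = 4), and over the 5 genes the median difference was -0.055 in the Etv5 knockdown, -0.032 in the Bcl6b knockdown (-0.0047 without replicate 1) and 0.0011 in the Pou3f1 knockdown.

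Anln, the gene of anillin, a scaffold of the cleavage furrow, was 3487, 3608, 3736 and 3872 in control and 1854, 3472, 3242 and 3414 in the Bcl6b knockdown. Replicate 1 was far below the others, and the other 3 lay just below the lowest control array. It was 3745, 3932, 3866 and 3879 in the Pou3f1 knockdown and 3612, 3952, 3646 and 3689 in the Etv5 knockdown, both overlapping control. The Bcl6b and Pou3f1 knockdowns did not overlap: Anln was lower with Bcl6b silenced, with a log2 difference of -0.19 without replicate 1 (SE 0.042, adjusted p = 0.00901), and with it -0.41 (SE 0.14, adjusted p = 0.181). Against control the Bcl6b difference was -0.34 (adjusted p = 0.206), and -0.12 without replicate 1 (adjusted p = 0.0676). Ect2 and Racgap1, which activate RhoA at the furrow, had control intensities of 1768 ± 137 and 905 ± 39.1 (SD, n = 4) and were not called.

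Foxm1 encodes the forkhead factor that activates many of the other members. It was 339, 351, 373 and 328 in control, 304, 246, 327 and 293 in the Etv5 knockdown and 77.6, 294, 292 and 299 in the Bcl6b knockdown, both below every control array. In the Pou3f1 knockdown it was 301, 305, 298 and 343, with replicate 4 in the control range. Replicate 1 of the Bcl6b knockdown gave the lowest value, and the standard error of Foxm1 in the Etv5 comparison was 0.31 with that array and 0.075 without it. Without that array Foxm1 fell by 0.26 log2 units in the Etv5 knockdown (adjusted p = 0.0397, and 0.899 with it). The Bcl6b difference was -0.71 with all arrays (adjusted p = 0.222) and -0.24 without replicate 1 (adjusted p = 0.0706), and that of the Pou3f1 knockdown was -0.16 (adjusted p = 0.935, and 0.187 without that array). The other Foxm1 probe sets above the array median gave -0.15 and -0.22 in the Etv5 knockdown.

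The level of the members also differed between arrays of 1 group. The median over the members was -0.017, 0.003, 0.018 and 0 log2 units from the control mean in control replicates 1 to 4. It was -0.084, -0.044, -0.002 and -0.148 in the Etv5 knockdown, -0.154, -0.080, -0.040 and -0.035 in the Bcl6b knockdown and -0.010, -0.011, 0.077 and -0.088 in the Pou3f1 knockdown. Within the Etv5 knockdown replicate 4 was lowest and replicate 3 highest, and the same holds within the Pou3f1 knockdown. Silencing also differed between arrays: Etv5 was 898 to 1676 in its knockdown and Pou3f1 354 to 519 in its own. It was weakest on replicate 3 in both. There the lowest germ cell marker was -0.88 log2 units from the control mean with Etv5 silenced and -0.35 with Pou3f1 silenced. On replicates 1, 2 and 4 it was -1.70, -1.70 and -1.72, and -0.75, -0.90 and -0.75. Whether the members follow the degree of silencing was not tested. Members below the control mean numbered 41, 30, 25 and 42 of 47 on Etv5 replicates 1 to 4, and 26, 28, 10 and 34 on Pou3f1 replicates. The 27 S phase genes, which carry out DNA replication, had medians of -0.093, -0.070, 0.027 and -0.146 in the Etv5 knockdown, -0.264, -0.050, -0.021 and -0.019 in the Bcl6b knockdown and 0.003, -0.010, 0.064 and -0.118 in the Pou3f1 knockdown. In each knockdown their lowest and highest arrays were those of the mitosis and G2 genes.

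**Figure D5:**
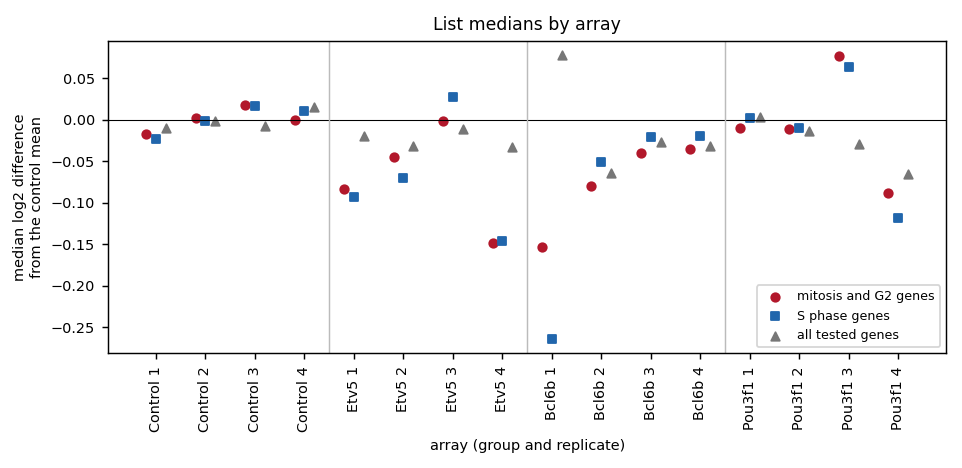
Median log2 difference from the control mean (y) on each of the 16 arrays (x) for the 47 mitosis and G2 genes (circles), 27 S phase genes (squares) and all 11145 tested genes (triangles). Within the Etv5 knockdown the circles run from -0.148 to -0.002 and within the Pou3f1 knockdown from -0.088 to 0.077, and the squares lie close to the circles on most arrays.

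Other genes of the pathway were taken from lists chosen by function. Of 48 tested genes of other spindle, kinetochore and centrosome parts, 0 were called by limma in the Etv5 knockdown, 0 in the Bcl6b knockdown and 1 in the Pou3f1 knockdown, Cenpl, a centromere protein, which rose by 0.31 log2 units (adjusted p = 0.0118). Without replicate 1 of the Bcl6b knockdown 3 were called lower in the Etv5 knockdown, Gtse1 (-0.27), Nsl1 (-0.41) and Cenpo (-0.42), 1 higher and 1 lower in the Bcl6b knockdown, and 4 higher and 2 lower in the Pou3f1 knockdown, in fits where 9.52%, 10.9% and 11.4% of all tested genes were called. The calls in this and the following lists are to be read against those shares, and against 2.09%, 3.21% and 2.25% with all 16 arrays. Of 29 other genes of mitotic entry, exit and cytokinesis, Ccnh, a subunit of the CDK-activating kinase, rose in all 3 knockdowns, by 0.25 with Etv5, 0.30 with Bcl6b and 0.26 with Pou3f1 silenced (adjusted p = 0.00694, 0.00138 and 0.00449). Reep4, which clears endoplasmic reticulum from mitotic chromosomes, fell by 0.34 in the Etv5 knockdown (adjusted p = 0.0104).

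Of 16 APC/C subunits and activators, Anapc5 rose by 0.37 in the Etv5 knockdown (adjusted p = 0.0229) and by 0.35 in the Bcl6b knockdown (adjusted p = 0.0234), and no other was called. It rose in the Pou3f1 knockdown too without replicate 1 of the Bcl6b knockdown, by 0.26 (adjusted p = 0.000826), and Anapc1 fell by 0.13 in the Bcl6b knockdown (adjusted p = 0.0446). None of 17 cohesin and other condensin genes was called in any knockdown with all 16 arrays, and without replicate 1 of the Bcl6b knockdown Stag2, a cohesin subunit, rose by 0.16 in the Bcl6b and 0.14 in the Pou3f1 knockdown and Esco2, a cohesin acetyltransferase, by 0.25 in the Pou3f1 knockdown. Of 18 tested regulators of cell cycle promoters (MuvB, DREAM, B-Myb and E2F genes), Lin9, a MuvB subunit, rose by 0.49 in the Pou3f1 knockdown (adjusted p = 0.0155). Without that array Tfdp1, the E2F partner, fell by 0.15 in the Etv5 knockdown and by 0.13 in the Pou3f1 knockdown, E2f1 fell by 0.20 in the Bcl6b knockdown, and Rb1 rose by 0.17 in the Pou3f1 knockdown. Of 27 S phase genes, Pola1, the catalytic subunit of DNA polymerase alpha, fell by 0.29 in the Bcl6b knockdown (adjusted p = 0.0407), and the list median was -0.076, -0.048 and 0.0040 in the Etv5, Bcl6b and Pou3f1 knockdowns. Leaving out replicate 1 of the Bcl6b knockdown, Orc1, Uhrf1 and Ccne1 fell in the Etv5 knockdown, by 0.25, 0.18 and 0.24, and Ccne2 rose by 0.27 in the Pou3f1 knockdown. Of 14 tested CDK inhibitors and G2 checkpoint genes, Ccng2, an unconventional cyclin associated with cell cycle arrest, rose by 0.58, 0.58 and 0.60 in the Etv5, Bcl6b and Pou3f1 knockdowns (adjusted p = 1.68e-05, 1.91e-05 and 1.2e-05). These were the largest differences called in these lists of cell cycle genes with all 16 arrays. Ccng1, a p53 target, fell by 0.20 in the Bcl6b knockdown (adjusted p = 0.0438) and by 0.42 in the Pou3f1 knockdown (adjusted p = 0.000224). In the fit without replicate 1 of the Bcl6b knockdown 1, 1 and 2 genes of this list were called higher and 2, 1 and 3 lower in the Etv5, Bcl6b and Pou3f1 knockdowns, among them Cdkn1a, the gene of the CDK inhibitor p21, which fell by 0.19 in the Etv5 and 0.23 in the Pou3f1 knockdown.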

How the data were processed

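The authors deposited 1 linear intensity value for each probe set on each array, from 1.66 to 71511. Per the labels' protocols, RNA was isolated with Trizol, treated with DNase and reverse-transcribed from a poly(T) primer. Partek 6.4, Affymetrix Expression Console 1.1, GCRMA and MAS5 appear in the submitters' processing notes without their roles. The program behind the intensities and the scaling between arrays are not given in the sources used here. For arrays, the number of arrays limits the precision.

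Controls aside there were 45037 probe sets, and the platform annotation table gave 34945 of them 1 gene, 932 several genes and 9160 none. Only those with 1 gene were used. For each gene the probe set with the highest mean log2 value over 16 arrays was kept (33 of 47 members had several). Genes above their own array's median on at least 4 arrays were tested: log2(intensity + 1), limma 3.58.1 in R 4.3.3 (lmFit, eBayes, trend on intensity), 4 groups in 1 fit, two-sided, Benjamini-Hochberg over 11145 genes, threshold 0.05. A difference on this scale understates changes of dim genes. The fit was repeated without replicate 1 of the Bcl6b knockdown.

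Every member could be named. Array values are given for members called with all 16 arrays or without replicate 1 of the Bcl6b knockdown, for the 3 with the smallest p in each knockdown, and for Cdk1, Plk1, Aurka, Top2a, Mki67 and Foxm1; of other lists up to 4 called genes were named by smallest p. Array values of Pttg1, Cdca8, Bub1, Bub3 and Kif2c, further genes named from the other and marker lists, and the promoter of Nek2 were chosen after their values were seen. The members and lists were chosen with earlier results of these data known. Alternatives tried were pseudocount, filter, normalization, choice of probe set, array weights, the groups in the fit, the replicate block and leaving out each array.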

Additional observations from a re-analysis of the deposited data

Results flagged for a closer look

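Values were compared within each group of 4 arrays for 16 chosen members (those called, those with the smallest p and those with main roles), 64 gene and group pairs, and 9 pairs held an array whose gap to the nearest other array exceeded Dixon's 95% critical value; chance gives about 1 in 20, or 5%. Of the 9, 6 were replicate 1 of the Bcl6b knockdown. Several of the 16 members were chosen because they were called only without that array, which favours genes with outlying values on it. The 5% is thus no measure of chance for that array. There Foxm1 was 77.6 against 292 to 299 on the other 3 arrays, Anln was 1854 against 3242 to 3472, and Nuf2 was 1024 against 1482 to 1538. On the same array Incenp was 7923 against 4812 to 4887, Mki67 was 4878 against 3205 to 3377, and Smc4 was 7376 against 6803 to 6823. Of the other 3 pairs, Cdc25b was 88.7 on Etv5 knockdown replicate 3 against 69.8 to 72.3, and Cdc25b was 79.6 on Pou3f1 knockdown replicate 4 against 82.4 to 82.6. Mki67 was 3592 on Pou3f1 knockdown replicate 3 against 3151 to 3175.

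The array's control probe sets, which belong to no comparison, also set replicate 1 of the Bcl6b knockdown apart. The log2 signal of the 3′ over the 5′ probe sets was 1.03 for Gapdh and 3.08 for Actb on that array, above the highest values on the 15 others, -0.45 and 0.76. On that array 31 of the 47 members lay outside the range of the 15 others, 21 below it and 10 above.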

How the results depend on the processing

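Nek2 in the Pou3f1 knockdown, the 1 call with all 16 arrays, kept its sign under all 29 alternatives. Differences of single members kept their sign except for 8 of 50 gene and comparison pairs, of which 7 were called under no alternative. The other was Top2a in the Bcl6b knockdown, called lower under 2 alternatives and at 0.083 with the mean over probe sets (adjusted p = 0.347). Counts of called members moved most. With array weights, 15 members were called in the Etv5 knockdown (2 higher, 13 lower), 9 in the Bcl6b and 6 in the Pou3f1 knockdown, and 1, 10 and 2 for Etv5 against Bcl6b, Etv5 against Pou3f1 and Bcl6b against Pou3f1. The cause was not tested. With only the groups compared in the fit, 5 were called in the Etv5 and 3 in the Pou3f1 knockdown (10.6% and 6.38% of members, where 8.94% and 10.2% of all tested genes were). With the mean over probe sets 0 were called in the Pou3f1 knockdown by limma, where 1.62% of all tested genes were. Median centring called 1 member in the Bcl6b knockdown, where 6.67% of all tested genes were called. It moved the median member difference of that knockdown from -0.077 to -0.136, and that of Bcl6b against Pou3f1 to -0.139.

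Leaving out 1 array in turn gave 0 to 4 called members in the Etv5 knockdown, 0 to 1 in the Bcl6b knockdown, 0 to 3 in the Pou3f1 knockdown, 0 for Etv5 against Bcl6b, and 0 to 1 for Etv5 against Pou3f1 and for Bcl6b against Pou3f1. The highest counts, 4, 1, 3, 1 and 1, came without replicate 1 of the Bcl6b knockdown. The median member difference ranged from -0.094 to -0.051, from -0.093 to -0.050 and from -0.027 to 0.022 in the Etv5, Bcl6b and Pou3f1 knockdowns.

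Of 24 same-numbered pairs of arrays, 5 had a correlation of deviations over 0.1 (range -0.26 to 0.20). Pairs with different numbers were not compared, so these values cannot show whether the numbers pair the samples. With the replicate block 0, 0 and 1 members were called in the Etv5, Bcl6b and Pou3f1 knockdowns, as without it. In that fit 1.59%, 2.49% and 1.75% of all tested genes were called. Further settings were chosen after seeing the data, all without replicate 1 of the Bcl6b knockdown. There the replicate block called 4, 2 and 5 (8.51%, 4.26% and 10.6% of members, where 9.36%, 8.88% and 11.2% of all tested genes were). Between knockdowns it called 1, 2 and 1, where 3.74%, 5.95% and 4.49% of all tested genes were called. Quantile normalization called 3, 1 and 3 (6.38%, 2.13% and 6.38%, where 10.04%, 11.1% and 11.03% were; and 4 for Etv5 against Pou3f1 and 2 for Bcl6b against Pou3f1). Median centring without that array called 0 in the Etv5 knockdown, 12 in the Bcl6b and 3 in the Pou3f1 knockdown (where 7.09%, 26.6% and 8.36% of all tested genes were called). Between knockdowns it called 1, 2 and 8, where 10.1%, 4.80% and 11.9% of all tested genes were called. It moved the median of all tested genes in the Bcl6b knockdown from -0.042 to -0.119, with 285 genes called higher and 2682 lower, against 454 and 766.

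With 4 arrays per group and a median standard error of 0.076 log2 units, differences well above that size did not always pass. With all 16 arrays Ccna2 at -0.32 and Foxm1 at -0.71 in the Bcl6b knockdown were not called. Both values include replicate 1 of that knockdown, and the standard error of Foxm1 was 0.31. Without that array the differences of Ccna2 and Foxm1 were -0.19 and -0.24, also not called. Array values give no molecule counts, and protein, cell cycle phase and cell number were not measured.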
